A study of Homo sapiens with 23 samples.

Results

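The connexin genes GJA1, GJC1, GJA3, GJB2, GJB5 and GJB6 were followed through 6 comparisons of a microRNA mimic with a negative control. These 6 members are genes whose symbol equals one of the listed connexins, out of 61217 genes in each of the authors' deposited tables, and all 6 were listed. C-33A and CaSki are established cell lines labelled as cervical squamous cell carcinoma, C-33A as HPV-negative and CaSki as metastatic and HPV-positive. Each line received 100 nM of hsa-miR-124-3p, hsa-miR-23b-3p or hsa-miR-218-5p, or 100 nM of a negative control, and polyA RNA was sequenced. Every group had 3 samples apart from the C-33A group with miR-124-3p, which had 2. All mimics of a line were compared with the same control group, so the 3 comparisons of a line are not independent. The labels do not say whether samples were separate cultures, so p-values measure the spread between samples, which may be technical. The tables give no value per sample, so each gene is described by its level and fold change per comparison. In bulk RNA, fewer cells that express a gene and less of its RNA per cell cannot be told apart.

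Connexins are membrane proteins that assemble as hexamers into hemichannels. Hemichannels of neighbouring cells dock into gap junctions, through which ions and small metabolites pass. In stratified squamous epithelium the alpha connexin GJA1 (connexin 43) and several beta connexins are laid down in different layers, and loss of gap junctions is a long-known feature of many carcinomas. A microRNA lowers a transcript mainly by pairing of its seed, positions 2 to 8, with the 3' UTR. GJA1 was chosen as a published target of miR-218, the others as further gap junction genes. Earlier results of these data were known when the members were chosen.

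The mature microRNAs are shown, 5′ to 3′, because their seeds set which sequences were searched for. Both come from RefSeq (GRCh38.p14), and capitals mark the seed.
hsa-miR-218-5p: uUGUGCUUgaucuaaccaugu
hsa-miR-23b-3p: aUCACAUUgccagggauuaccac
The mature sequence of miR-124-3p was not in the sequence table used here, and no match to it was counted. The seeds differ, so the mimics shown fall into separate seed groups. A match to miR-218-5p reads AAGCACA and one to miR-23b-3p AATGTGA, searched on the transcript's own strand in the longest 3' UTR of each gene in GENCODE release 29 (GRCh38). A match with an A directly 3' of it is called an 8mer. The motifs do not overlap each other.

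Of the 6 connexins, only GJA1 held a match to positions 2 to 8 in the searched 3' UTR, 1 for each microRNA. The share over all 19120 genes with a 3' UTR was 14% for miR-218-5p and 18.4% for miR-23b-3p. GJA1 (ENSG00000152661) lies on chromosome 6 at 121435577 to 121449727, plus strand. Its 3' UTR of 1731 nt holds the miR-218-5p match 1005 nt after the stop codon and the miR-23b-3p match 1211 nt after it. Neither is an 8mer. The sites are printed on the plus strand of GRCh38, with the match in capitals.
GJA1 with miR-218-5p match, chr6:121448986-121449015: ctgctgtggcaagtaAAGCACActtttttt
GJA1 with miR-23b-3p match, chr6:121449192-121449221: caggctttagtcattAATGTGAgagactta
The miR-218-5p match itself covers 121449001 to 121449007 and the miR-23b-3p match 121449207 to 121449213. The 3' UTRs of the other members ran from 360 nt in GJB5 to 6179 nt in GJC1. No 3' UTR of their other annotated transcripts held a match either. Nor did the coding sequence of the searched transcript of each, the only coding sequence counted. A match is a description of sequence and not a measured site.

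**Figure D1:**
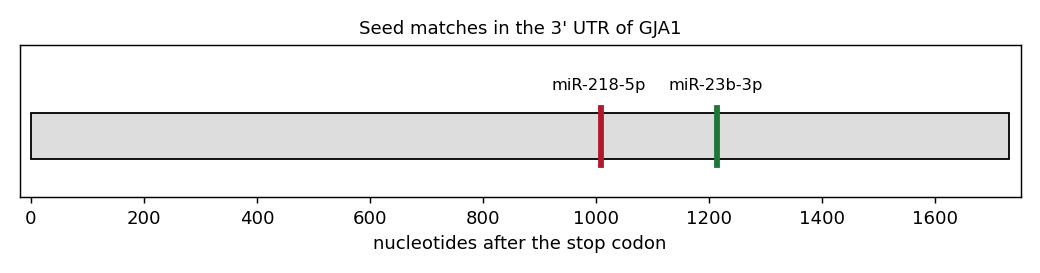
Map of the 1731 nt 3' UTR of GJA1, drawn to scale in nucleotides after the stop codon (x axis). The red mark is the miR-218-5p seed match at 1005 nt and the green mark the miR-23b-3p match at 1211 nt.

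The lines differed in which connexins they expressed. In the authors' deposited tables the average log2 CPM (counts scaled to library size, over all libraries of a comparison) of GJA1 was 9.94, 10.15 and 10.21 in the C-33A comparisons, against 5.50, 5.59 and 5.74 in the CaSki comparisons. GJA1 ranked between 36 and 62 of all listed genes in C-33A, against 3838 to 4399 in CaSki. The mean levels lay 4.49 apart on the log2 scale. GJA3 (connexin 46), known for its role in the lens, averaged 4.23 log2 CPM in C-33A and 2.23 in CaSki in the authors' deposited tables. GJC1 (connexin 45), known from heart and smooth muscle, averaged 6.90 in C-33A and 6.14 in CaSki there.

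Of the beta connexins, GJB5 and GJB2 stood lower in C-33A than in CaSki, and GJB6 was at or near the lowest listed level in both lines. GJB5 averaged -2.90 log2 CPM in C-33A and 4.41 in CaSki in the authors' deposited tables, a difference of -7.31. GJB2 (connexin 26), whose loss causes inherited deafness, averaged -1.52 in C-33A and 0.57 in CaSki there. GJB6 (connexin 30), its partner in the inner ear, averaged -3.26 in C-33A there, close to the lowest listed level of -3.64 to -3.60. In all 3 CaSki tables GJB6 was at the lowest listed level, with a fold change and F of 0. The tables were normalized separately and share the control samples of a line, so these differences of level are descriptions with no test.

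Per kilobase of transcript, the order in C-33A was GJA1 (8.44 log2 CPM per kb), GJC1 (3.97), GJA3 (1.84), GJB2 (-2.73), GJB5 (-3.33) and GJB6 (-4.31), from the authors' deposited tables and GENCODE lengths. The ranges of neighbours over the 3 C-33A tables did not overlap, but these tables share the control samples. GJB5 and GJB6 both stood near the lowest listed level in C-33A, and before scaling by length their ranges overlapped. Their separation there thus depends on the transcript lengths (1355 nt for GJB5 and 2072 nt for GJB6), and their order is not read as a difference in expression. In CaSki the order was GJB5 (3.97), GJA1 (3.96), GJC1 (3.21), GJA3 (-0.15) and GJB2 (-0.64), with GJB6 at the lowest listed level. GJB5 and GJA1 could not be ordered, since GJA1 ranged from 3.84 to 4.08 and GJB5 from 3.95 to 3.98 over the CaSki tables. The length taken for GJC1 is 7640 nt, and shorter transcripts are annotated, so its place depends on which transcript is made.

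Other connexins were also read in both lines. GJA5 (connexin 40), known from arteries and the cardiac conduction system, averaged -3.23 log2 CPM in C-33A and 5.10 in CaSki in the authors' deposited tables. GJD3 averaged -1.88 in C-33A and 0.34 in CaSki there.

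**Figure D2:**
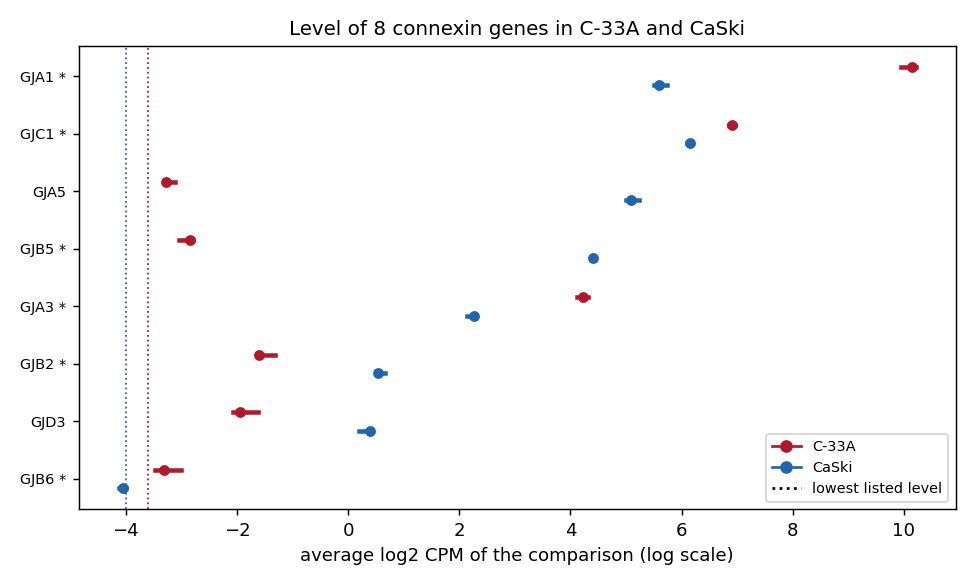
Level of 8 connexin genes as average log2 CPM of the comparison (x axis, log scale), with genes down the page and the 6 members starred. Points are medians and bars the range over the 3 tables of a line (C-33A red, above; CaSki blue, below), and dotted lines the highest of the 3 lowest listed levels. GJA1 stands at 9.94 to 10.21 in C-33A and 5.50 to 5.74 in CaSki, while GJA5 and GJB5 are above 4 only in CaSki.

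Neighbouring genes did not share a level. GJA3, GJB2 and GJB6 lie side by side within 94.1 kb of chromosome 13 (20138255 to 20232395, minus strand, GRCh38). In C-33A their averages were 4.23, -1.52 and -3.26 log2 CPM in the authors' deposited tables. In CaSki they were 2.23, 0.57 and the lowest listed level.

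The labelled cell type was checked against its markers. In CaSki 9 of 9 epithelial markers reached an average log2 CPM of 1, from 5.81 (EPCAM) to 12.07 (KRT5), in the authors' deposited tables. In C-33A 0 of 9 did, with KRT18 highest at 0.78 and CDH1 (E-cadherin) at -2.95. The markers of the labelled epithelial type were thus all below this limit in C-33A, though not all absent. KRT8 at 0.70, KRT18 and EPCAM at -0.65 stood above the lowest listed level there. KRT5, KRT14, KRT17, KRT19, CDH1 and TP63 stood at -2.40 or less. The summed level of the 9 epithelial markers was 2.22 to 2.28 in C-33A and 13.17 to 13.19 in CaSki. VIM averaged 6.54 in C-33A and 8.44 in CaSki, and COL1A1, COL1A2, DCN and PDGFRB reached 1 only for COL1A2 in C-33A (2.95) and COL1A1 in CaSki (1.79). The leukocyte gene PTPRC stood at 2.55 in C-33A and -3.78 in CaSki, with CD3E, CD14 and CD68 at -2.93 or less in both lines. The endothelial genes PECAM1, VWF and CDH5 stayed under 1 in both lines, CDH5 in CaSki being highest at 0.38. Their part in the connexin levels was not tested.

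In C-33A with miR-218-5p, GJA1 fell, and it was the one call among the 36 tests of 6 members in 6 comparisons. A call means a deposited FDR under 0.05 over all listed genes, by the authors' edgeR quasi-likelihood F-test with Benjamini-Hochberg adjustment. The log2 fold change of GJA1 in the authors' deposited table was -0.78 (95% interval -1.11 to -0.46, SE 0.164, FDR 0.00551), a change of -41.9%. Each SE was recovered from the deposited fold change and p-value. In this comparison 1 of 6 members fell and 0 rose, beside 0.0686% and 0.00653% of all genes. GJA1 was the most abundant of the 42 called falls, rank 20 by p and rank 28 by size among them. Their fold changes ran from -1.12 to -0.67 with a median of -0.83 in the authors' deposited table.

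The call did not hold under 1 of the alternatives run. With a trend of the fold change on transcript length and GC content removed, GJA1 stood at -0.68 with an adjusted p of 0.0718, against 0.00551 before. The fitted trend at the length and GC content of GJA1 was -0.103. Over the other alternatives with a test the adjusted p stayed under the threshold, the lowest being 0.00116. Set against the mean of the other 2 C-33A mimics, where the control samples cancel, the value was -0.56.

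In CaSki the miR-218-5p value of GJA1 was -0.30 in the authors' deposited table (95% interval -0.58 to -0.03, SE 0.141, p = 0.032, FDR 1) and did not pass. Set against the mean of the other 2 CaSki mimics it was -0.41. The C-33A minus CaSki difference was -0.48 (SE 0.217, 95% interval -0.91 to -0.06, adjusted p = 1, normal test with Benjamini-Hochberg adjustment over 11082 genes). The values in the lines are thus not shown to differ. Of the genes tested, 0% passed for this difference and 1.52% had an unadjusted p under 0.05, GJA1 among them.

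GJA1 was then placed among genes that carry a miR-218-5p match of the same kind. Genes are called expressed at an average log2 CPM of at least 1. In C-33A, 1045 expressed genes held 1 match that is not an 8mer, GJA1 among them, with a median log2 fold change of -0.073 in the authors' deposited table. Of these, 10 fell (0.957%), and 7 had a lower value than GJA1 (0.67%). Among 497 genes with an 8mer the median was -0.168, and 20 fell (4.02%). Among 8711 genes with no match the median was -0.029, and 5 fell (0.0574%). In CaSki the median was 0.016 among 1053 genes with 1 match and no 8mer, of which 3 fell (0.285%), in the authors' deposited table. It was -0.052 among 525 genes with an 8mer, of which 6 fell (1.14%), and 0.019 among 9155 genes with no match, of which 3 fell (0.0328%). A lower value than that of GJA1 in CaSki was held by 8.83% of the genes with 1 match and no 8mer, against 5.66% of genes with no match. None of these groups was adjusted for transcript length and GC content. The fitted trend on these ran from -0.19 to 0.05 in C-33A and from -0.09 to 0.12 in CaSki (5th to 95th percentile of expressed genes). Its part in the differences between the groups was not tested.

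**Figure D3:**
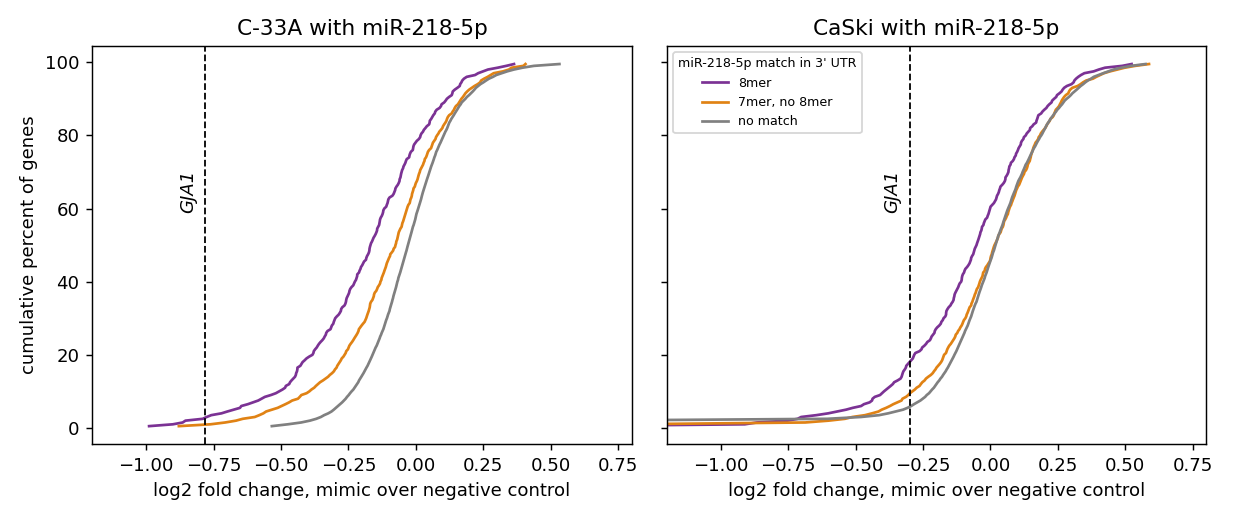
Cumulative percent of genes (y axis) by log2 fold change after miR-218-5p over negative control (x axis), for C-33A and CaSki, in genes with an 8mer match, with another match to positions 2 to 8, and with none. The dashed line is GJA1, at -0.78 in C-33A and -0.30 in CaSki; 0.828% of C-33A genes with a match but no 8mer lie below it.

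GJA1 did not pass after the other mimics. After miR-23b-3p, for which it holds a match, it stood at -0.24 in C-33A (SE 0.167, p = 0.15, FDR 1) and at 0.06 in CaSki (SE 0.126, p = 0.607, FDR 1) in the authors' deposited tables. In C-33A 132 of 1047 genes with 1 miR-23b-3p match and no 8mer (12.6%) had a lower value, against 4.58% of genes with no match. In CaSki 51.5% of 1077 genes with 1 such match had a lower value than GJA1, against 61.3% with no match. The CaSki medians of these groups were 0.052 and -0.034, so genes with a match did not stand lower there in the deposited values. The groups were not adjusted for transcript length and GC content. The fitted trend on these ran from -0.27 to 0.26 (5th to 95th percentile of expressed genes) in this CaSki comparison. An effect of a match apart from that trend was thus not tested. After miR-124-3p GJA1 stood at -0.21 in C-33A (SE 0.165, FDR 1) and 0.15 in CaSki (SE 0.135, FDR 1) in the authors' deposited tables. The C-33A minus CaSki differences of GJA1 were -0.30 after miR-23b-3p (95% interval -0.71 to 0.10, adjusted p = 0.473) and -0.36 after miR-124-3p (95% interval -0.78 to 0.06, adjusted p = 1). For these differences 2.13% and 0% of the genes tested passed, and 16.8% and 2.59% had an unadjusted p under 0.05.

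GJA1P1, a processed pseudogene on chromosome 5, is a near copy that could take reads from GJA1. It aligned to the 1149 nt coding sequence over 1143 nt with 97% identical bases, and holds no miR-218-5p match. Its average log2 CPM was -0.27 in C-33A and -0.65 in CaSki in the authors' deposited tables, a difference of 0.38 where GJA1 differed by 4.49. Its log2 fold change after miR-218-5p was 0.25 in C-33A (SE 0.452) and -0.51 in CaSki (SE 0.451) in the authors' deposited tables, with an FDR of 1 in each. How reads were split between the pair was not tested.

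**Figure D4:**
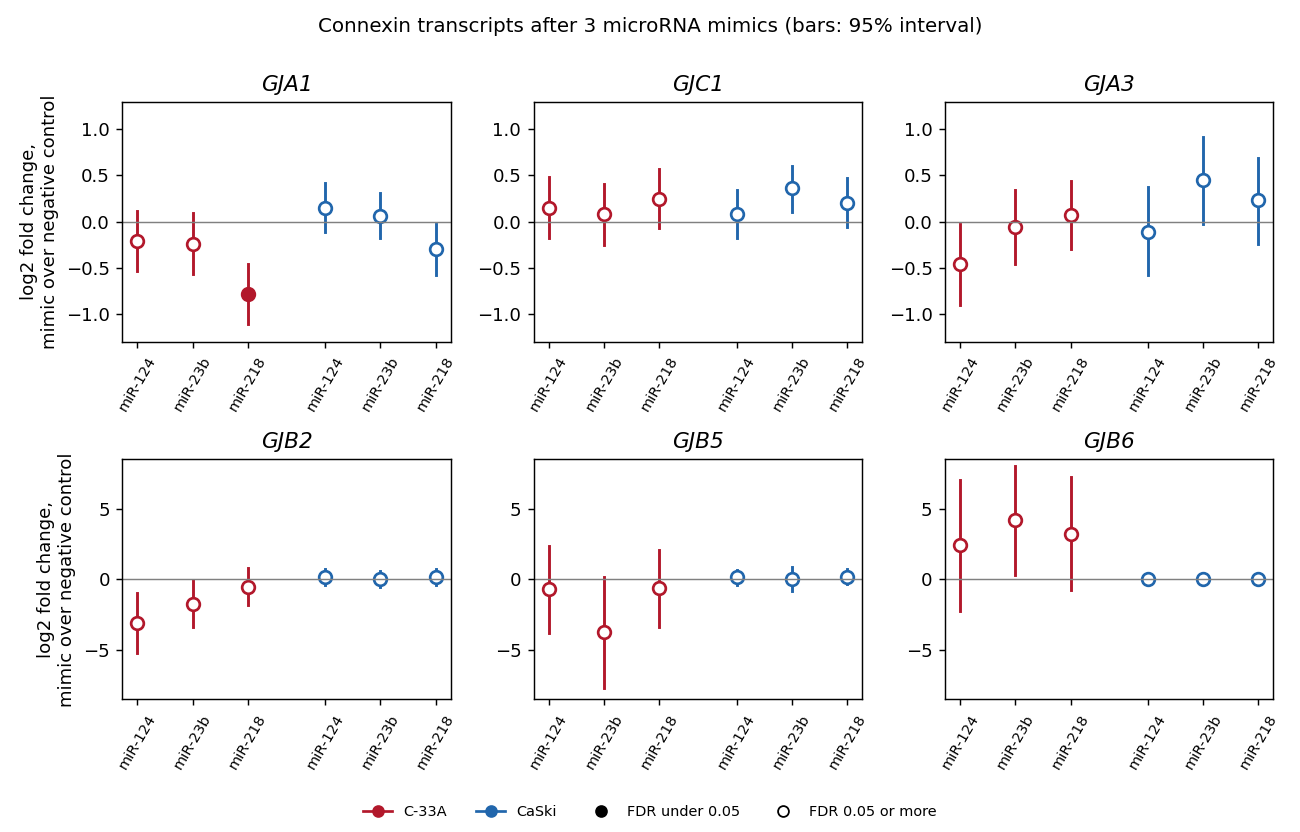
Log2 fold change of each connexin, mimic over negative control (y axis; the lower row has a wider scale), in the 3 comparisons of C-33A (red) and of CaSki (blue). Points are deposited values, bars 95% intervals from the recovered SE, and the single filled point, GJA1 in C-33A with miR-218-5p at -0.78, has an FDR under 0.05. GJB6 in CaSki is drawn at 0 with no bar because it is at the lowest listed level.

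GJC1 passed in no comparison at the deposited FDR. Its log2 fold changes in the authors' deposited tables were 0.15 after miR-124-3p, 0.08 after miR-23b-3p and 0.25 after miR-218-5p in C-33A. In CaSki they were 0.08 after miR-124-3p, 0.36 after miR-23b-3p and 0.20 after miR-218-5p in the authors' deposited tables. All lay above 0, in comparisons that share controls, except that CaSki with miR-124-3p turned to -0.05 with the length and GC trend removed. They had SEs of 0.162 to 0.170 in C-33A and 0.124 to 0.135 in CaSki. After miR-23b-3p in CaSki the value was 0.36 (95% interval 0.11 to 0.60, p = 0.00416, FDR 0.114) in the authors' deposited table. Adjusted over expressed genes alone the adjusted p was 0.028, and with a level limit of 0 it was 0.0313. With the length and GC trend removed the value was 0.14 and the adjusted p 1. GJC1 has the longest transcript of the members, and in this comparison 10.4% of expressed genes were called.

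GJA3 passed in no comparison. In C-33A its log2 fold changes in the authors' deposited tables were -0.46 (SE 0.223, p = 0.0386, FDR 1) after miR-124-3p, -0.06 after miR-23b-3p and 0.07 after miR-218-5p. In CaSki they were -0.11 after miR-124-3p, 0.45 (SE 0.242, p = 0.0658, FDR 0.587) after miR-23b-3p and 0.23 after miR-218-5p in the authors' deposited tables. The C-33A minus CaSki differences of GJA3 and GJC1 after the 3 mimics lay between -0.51 and 0.07, with adjusted p-values from 0.419 to 1.

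The beta connexins were measured well enough to read only in part. GJB5 in CaSki stood at 0.13 (SE 0.261) after miR-124-3p, 0.04 (SE 0.439) after miR-23b-3p and 0.18 (SE 0.271) after miR-218-5p in the authors' deposited tables, with an FDR of 1 in each. The widest of these intervals ran from -0.82 to 0.90. GJB2 in CaSki stood between 0.03 and 0.17 there, with SEs of 0.293 to 0.301 and an FDR of 1 in each.

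In C-33A the beta connexins stood low, and their fold changes had wide errors. GJB2 stood at -3.08 (SE 1.09, p = 0.0047, FDR 0.715) after miR-124-3p, at -1.72 (SE 0.839, p = 0.0402, FDR 1) after miR-23b-3p and at -0.51 (SE 0.652) after miR-218-5p in the authors' deposited tables, at an average log2 CPM of -1.63 to -1.31. GJB5 ranged from -3.76 to -0.65 with SEs of 1.37 to 1.99 and GJB6 from 2.40 to 4.18 with SEs of up to 2.35, with an FDR of 1 in each C-33A table. None of these values is read as a change.

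No further member was called. In the edgeR quasi-likelihood tests of the authors' deposited tables, 0 of 6 members passed in each comparison other than C-33A with miR-218-5p. The share of all genes called in either direction was 0.162% in C-33A with miR-124-3p, 0.0474% in C-33A with miR-23b-3p and 0.0751% in C-33A with miR-218-5p. In CaSki it was 0.305% with miR-124-3p, 2.4% with miR-23b-3p and 0.0245% with miR-218-5p. With the length and GC trend removed, the number of genes called was 784 rather than 1472 in CaSki with miR-23b-3p, 13 rather than 29 in C-33A with miR-23b-3p and 27 rather than 46 in C-33A with miR-218-5p. Of the 36 tests, 21 were on expressed genes. An unadjusted p under 0.05 was found in 7 of the 36, for which the share over all listed genes was not computed. These 7 include GJB2 in C-33A with miR-124-3p and with miR-23b-3p, and GJB6 in C-33A with miR-23b-3p. Neither gene was expressed there, and these values are not read as changes. Of the 3 members expressed in C-33A, the number with an unadjusted p under 0.05 was 1 with miR-124-3p, 0 with miR-23b-3p and 1 with miR-218-5p, beside 10.9%, 4.68% and 5.42% of all expressed genes. Of the 4 expressed in CaSki it was 0 with miR-124-3p, 1 with miR-23b-3p and 1 with miR-218-5p, beside 16.3%, 31.6% and 7.54%. Of the other connexins in CaSki, GJA5 stood between -0.34 after miR-124-3p (FDR 0.863) and 0.02 after miR-23b-3p (FDR 1) in the authors' deposited tables. GJD3 stood between -0.12 after miR-124-3p and 0.37 after miR-218-5p there, with an FDR of 1 in each.

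The 5 genes whose 6 log2 fold changes were most like those of GJA1 were ACTR6, ZDHHC2, TMEM167A, UBE2Q2 and MRPL19, out of 9594 genes whose average log2 CPM was at least 2 in all tables. Likeness was the root mean square difference over the 6 comparisons, which was 0.0744 for ACTR6 and 0.121 for MRPL19, against a median of 0.418 over all ranked genes. In C-33A with miR-218-5p they stood at -0.79, -0.79, -0.66, -0.77 and -0.61 in the authors' deposited table. In CaSki with miR-218-5p they stood at -0.33, -0.32, -0.31, -0.42 and -0.44 there. Each of the 5 holds a miR-218-5p match in its 3' UTR, as do 16.4% of the ranked genes with a 3' UTR. The 5 were picked on fold changes that include those after miR-218-5p. Their matches are therefore no separate evidence about GJA1.

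Of the further genes that act beside or on gap junctions, 31 were expressed in CaSki, and 3 of these were called with miR-23b-3p. That share of 9.68% is near the 10.4% of all expressed genes. Of 3 pannexins, which form channels without docking, 0 were called in any comparison by the edgeR test of the authors' deposited tables, and 1 of them, PANX2 in CaSki with miR-124-3p (0.48, FDR 0.999), had an unadjusted p under 0.05. In that comparison 16.3% of all expressed genes had one. PANX1 averaged above 5 log2 CPM in both lines and stood between -0.16 and 0.20 in the 6 comparisons.

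Of 10 scaffolds and junction partners, 1 was called. CTNND1 (p120 catenin), which holds cadherins at the membrane, rose by 0.42 in CaSki with miR-23b-3p in the authors' deposited table (SE 0.12, FDR 0.0289), where 1.41% of all genes rose. With the length and GC trend removed it stood at 0.21 and was not called (adjusted p = 0.743). CAV1 (caveolin-1), a coat protein of caveolae that binds GJA1, stood at -0.58 in CaSki with miR-124-3p there (SE 0.158, FDR 0.0646). TJP1 (ZO-1), the scaffold that binds the tail of GJA1, stood between -0.02 and 0.12 in C-33A in the authors' deposited tables. In CaSki TJP1 stood at -1.65 (SE 1.39, FDR 1) after miR-124-3p, -2.23 (SE 1.62, FDR 0.896) after miR-23b-3p and -1.76 (SE 1.40, FDR 1) after miR-218-5p there. The 3 CaSki values share the control samples. CDH1, CAV1 and CCN3, another binder of the GJA1 tail, were below an average log2 CPM of 0 in C-33A.

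Of 9 genes of assembly, transport and turnover, 0 were called in any comparison by the edgeR test. An unadjusted p under 0.05 was found for 1 in C-33A with miR-124-3p, 1 in CaSki with miR-23b-3p, 1 in CaSki with miR-218-5p and 0 in the others. Of all expressed genes, 10.9%, 31.6% and 7.54% had one in the named comparisons, in that order. NEDD4, a ubiquitin ligase of GJA1, stood at -0.37 in C-33A with miR-124-3p (FDR 1) and at -0.34 in CaSki with miR-23b-3p (SE 0.111, FDR 0.0692) in the authors' deposited tables. With the length and GC trend removed the CaSki value was -0.55 and passed (adjusted p = 0.000495). SQSTM1 (p62), an autophagy receptor, stood at -0.30 in CaSki with miR-218-5p there (SE 0.124, FDR 1). The list's median ran from -0.15 to 0.05, against -0.041 to 0.019 over all expressed genes.

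Of 11 kinases that phosphorylate GJA1, 1 fell and 1 rose, both in CaSki with miR-23b-3p. All 11 were expressed in CaSki, and 10.4% of all expressed genes were called in that comparison. AKT1 fell there, with -0.50 in the authors' deposited table (SE 0.115, FDR 0.00227), where 0.995% of all genes fell. PRKACA, the catalytic subunit of protein kinase A, rose by 0.53 there (SE 0.151, FDR 0.0242), where 1.41% of all genes rose. Both kept their call with the length and GC trend removed. YES1, a SRC family kinase, stood in C-33A at -0.22 (FDR 1) after miR-124-3p, -0.43 (FDR 1) after miR-23b-3p and -0.62 (SE 0.162, FDR 0.133) after miR-218-5p in the authors' deposited tables. In CaSki YES1 stood between -0.25 and -0.12 there, and none of its values passed. MAPK7, one of the MAP kinases, stood between 0.37 and 0.40 in C-33A after the 3 mimics there, with an FDR of 1 in each.

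**Figure D5:**
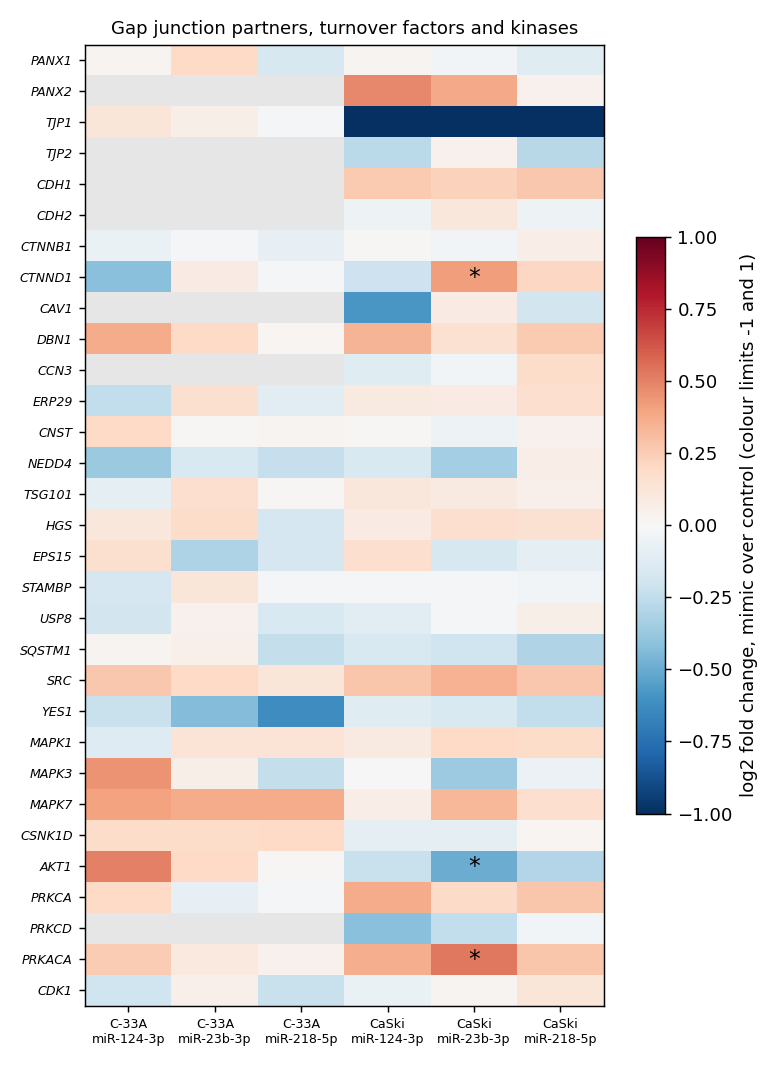
Log2 fold change, mimic over negative control (colour, limits -1 and 1), of 31 pannexins, partners, turnover factors and kinases (rows) in the 6 comparisons (columns). Stars mark the 3 values with an FDR under 0.05, all in CaSki with miR-23b-3p, grey marks an average log2 CPM under 1, and the 3 values beyond the limits are TJP1 in CaSki.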

How the data were processed

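PolyA RNA of 23 samples in 8 groups was sequenced, and per the submitters' processing notes the tools were edgeR 3.36.0, featureCounts 2.0.3, STAR 2.7.10b and FastQC 0.73, on GRCh38. Per the file headers, the 6 deposited tables hold log2 values (fold change and average CPM), the F statistic as a score, and each p-value raw and as FDR. No values per sample were used here, so the depth is unknown. Whether counting used strand is not stated.

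The authors' FDR matched Benjamini-Hochberg values recomputed over all 61217 genes, and genes under 0.05 were called. The SE was recovered from the log2 fold change and the normal quantile of the deposited p-value, and 95% intervals are normal. Differences between lines were tested over genes expressed (average log2 CPM at least 1) in both (scipy 1.17.1). The trend on length and GC content was a robust additive spline with 5 knots (statsmodels 0.14.6). Both were run on simulated data with normal errors of the recovered SEs, which were limited around their median. That setting follows the assumptions of the methods, so it checks the code and not their fit to these data. The design foresaw count fits only where values per sample were at hand. Members and gene lists, made from background knowledge, were chosen with earlier results of these data known. Named were all members, GJA1P1, family genes reaching 0 log2 CPM, called list genes or else the 2 largest changes, from which the text takes a selection, and the 5 genes most like GJA1. Results for some family genes are not reported here. Values of YES1, MAPK7, TJP1, CDH1, CAV1 and CCN3 outside this rule were chosen after their values were seen.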

Additional observations from a re-analysis of the deposited data

How the results depend on the processing

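With the length and GC trend removed, the number of connexins called in C-33A with miR-218-5p was 0 rather than 1, and GJC1 in CaSki with miR-124-3p turned to -0.05. In CaSki with miR-23b-3p that setting, applied to the other gap junction lists after seeing the data, ended the call of CTNND1 (0.21), made NEDD4 pass (-0.55) and kept AKT1 (-0.51) and PRKACA (0.60). Calls over all genes numbered 784, against 1472 deposited, in CaSki with miR-23b-3p. They numbered 13, against 29, in C-33A with miR-23b-3p and 27, against 46, in C-33A with miR-218-5p. With the adjustment restricted to genes reaching a log2 CPM of 0, or of 1, the number called in CaSki with miR-23b-3p was 1 rather than 0. Counts of members called kept their value at an FDR under 0.01 and under 0.10 and when centred on the median of expressed genes. GJA1, GJA3 and GJC1 did not pass for a difference between the lines under any setting tried (SE from F, a lower level limit, all listed genes). For miR-218-5p, 1 member held a match to positions 2 to 8, 3 held a 6mer (positions 2 to 7), and 0 held an 8mer. In the coding sequence of the searched transcript 0 held a match. For miR-23b-3p these counts were 1, 5, 0 and 0. Of all genes with a 3' UTR, 14%, 33.5%, 4.44% and 13.9% held these kinds for miR-218-5p, in the same order. For miR-23b-3p the shares were 18.4%, 37.9%, 8.73% and 13.4%. DESeq2 size factors and leaving out replicates were not run, because the tables hold no values per sample. No paired analysis was possible because the tables hold no values per sample.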
